A study of Mus musculus with 8 samples.

Results

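The genes described here restrain or tune inflammatory signalling after it has started. They are dual specificity phosphatases that act on MAP kinases (Dusp1, Dusp2, Dusp5, Dusp6, Dusp10 and Dusp16), the stress proteins Gadd45a and Gadd45b, and the mRNA decay factors Zfp36 and Zfp36l1. They were chosen by symbol, and 9 of the 10 have at least 1 probe on the array under that symbol, 18 probes of 25697 in all. All 18 passed the filter on dim probes, so 9 of the 10219 genes tested are members. The expression of Dusp5, a nuclear phosphatase of ERK, is not analysed here because no probe carries its symbol, and only its promoter is counted. The RNA came from splenic Gr1+ cells (a surface mark of neutrophils and some monocytes), which were isolated on magnetic columns from pools of female C57BL/6 mice, 6 to 8 weeks of age, and was hybridised to Illumina MouseRef-8 v2 arrays. In the LPS+HY209 group (3 arrays, titled LT) mice received lipopolysaccharide (LPS, the endotoxin of Gram-negative bacteria, used here as a model of sepsis) into the peritoneum and HY209 (sodium taurodeoxycholate, a bile salt) 30 min later. The LPS group (3 arrays) received LPS and then PBS, and the PBS group (2 arrays, numbered 1 and 3) received PBS both times. Spleens were taken 48 h after the first injection in every group, and more than 95% of the Gr1+ cells carried CD11b according to the labels. No group received HY209 without LPS. The labels name pools of 10 to 15 spleens in one place and of 30 to 40 in another, repeated to make separate samples, so each array stands for a pool and not for a mouse.

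MAP kinases (ERK, JNK and p38) carry the signal from LPS receptors to cytokine genes. A dual specificity phosphatase removes the phosphates from both activating residues, threonine and tyrosine, and so ends that signal, and many of these phosphatases are themselves induced by the kinases they switch off. Gadd45 proteins bind Map3k4 and activate p38 and JNK, and Gadd45b can also inhibit the JNK kinase Map2k7. Zfp36 (tristetraprolin) and its relative Zfp36l1 bind AU-rich elements in cytokine mRNAs such as Tnf and recruit the CCR4-NOT deadenylase, which marks those mRNAs for decay.

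In what follows intensities are the deposited values, given array by array in numerical order of the arrays. Log2 changes and folds were computed on background-corrected values and therefore differ somewhat from the ratios of the printed intensities. The sign ± after a log2 change marks the standard error of the limma fit, and after an intensity it marks the SD between arrays of 1 group (n = 3 for LPS+HY209, 3 for LPS and 2 for PBS). Adjusted p-values were adjusted over all 10219 genes tested, and a gene was called at an adjusted p under 0.05. Intensities ran up to 66399, and values above 168.8 were taken as above background. The authors normalized the arrays to the same quantiles, so 2 arrays of a group hold exactly the same value wherever a probe has the same rank on both.

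The sorted fraction held strong neutrophil signal in every group. S100a8, a calcium-binding protein of neutrophils, averaged 61212 ± 1664 in LPS+HY209 cells, 62004 ± 501 in LPS cells and 58814 ± 953 in PBS cells. These values lie near the top of the intensity range (at most 66399), and whether they are compressed there was not tested. The summed intensity of the 14 neutrophil markers tested ran from 365647 to 375143 in LPS+HY209 cells, 375179 to 386517 in LPS cells and 321690 to 325873 in PBS cells. Of the 14, 8 were called higher and 2 lower in LPS cells than in PBS cells (25.7% and 30.2% of all genes). The counts were also 8 and 2 for LPS+HY209 cells against PBS cells (21.6% and 26.1% of all genes). Of the defining markers Ly6g has no probe under its symbol, and Mmp8 was not above background in PBS cells. Markers of other cells also differed between the groups. The 10 macrophage markers tested summed to 54400 to 58403 in LPS+HY209 cells, 66679 to 70343 in LPS cells and 239446 to 244054 in PBS cells, and 9 of them were lower after LPS. B cell markers (6 tested, all lower after LPS) summed to 11267 to 13076 in LPS+HY209 cells, 7051 to 7845 in LPS cells and 35606 to 37229 in PBS cells. The 9 endothelial markers summed to 4398 to 7487 in LPS+HY209 cells, 2574 to 2713 in LPS cells and 12981 to 13976 in PBS cells, and 7 of them were higher with HY209 than with LPS alone. Erythroid markers (6 tested) summed to 46439 to 58428, 26327 to 29437 and 81308 to 82831 in LPS+HY209, LPS and PBS cells, and T and NK cell markers (6 tested) to 14066 to 19859, 14245 to 15052 and 47670 to 49789. Monocyte markers (3 tested) stood higher after LPS in sum, at 43352 to 45781 in LPS+HY209 cells, 46386 to 47768 in LPS cells and 15263 to 16646 in PBS cells. Of these Cd14 and Ly6c1 rose and Cx3cr1 fell in LPS cells against PBS cells, and Ccr2 was not above background in any group. The 3 eosinophil markers tested summed to 1404 to 1515 in LPS+HY209 cells, 1684 to 1861 in LPS cells and 2515 to 2593 in PBS cells. They did not move together, as 1 was called higher and 1 lower than in PBS cells in either group with LPS. Pax5, Cd4, Cd8a and Cd5l were not above background in any group. Between LPS+HY209 and LPS cells, 6 of 10 macrophage markers were called lower. In the same comparison 4 of 6 B cell, 5 of 6 erythroid and 7 of 9 endothelial markers were called higher. Of the others, 1 neutrophil marker was called higher, 1 eosinophil marker lower, and 0 T and NK cell or monocyte markers were called. Over all genes 6.15% were called higher and 3.48% lower. The part of these other cells in the members' values was not tested. In such bulk samples fewer cells of a type and less RNA per cell cannot be told apart.

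After LPS most members stood higher than in PBS cells, and 1 of them was lower with HY209 than with LPS alone. Of the 9 members tested, 6 rose in LPS cells (Dusp1, Dusp2, Dusp16, Gadd45b, Zfp36 and Zfp36l1), 1 fell (Gadd45a) and 2 were not called (Dusp6 and Dusp10). Over all genes 55.9% were called in that comparison, 25.7% higher and 30.2% lower. The median log2 change of the members was 0.45, against -0.0039 over all genes. In LPS+HY209 cells against LPS cells, 1 member (Zfp36) fell and 0 rose by limma, against 9.63% of all genes called (6.15% higher and 3.48% lower). At an unadjusted p under 0.05, 2 members were lower and 0 higher by limma, and the share of all genes at that threshold was not counted. The median of the members was -0.15, against -0.013 over all genes, and 7 of the 9 point estimates lay below 0, as did 52.9% of those of all genes. The share of 9.63% called depended on single arrays, since 984 genes were called with all arrays and 402, 512 and 528 without LPS+HY209 1, LPS 1 and LPS 3. Against PBS cells, LPS+HY209 cells had 4 members higher (Dusp2, Dusp16, Gadd45b and Zfp36l1) and 1 lower (Gadd45a), with 47.7% of all genes called (21.6% higher and 26.1% lower). The arrays of the compared groups did not overlap for 8 of the 9 members between LPS and PBS (71.3% of all genes), for 7 between LPS+HY209 and PBS (64.7%) and for 3 between LPS+HY209 and LPS (29.3%). These comparisons share arrays, so they are given side by side and are not independent of each other.

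**Figure D1:**
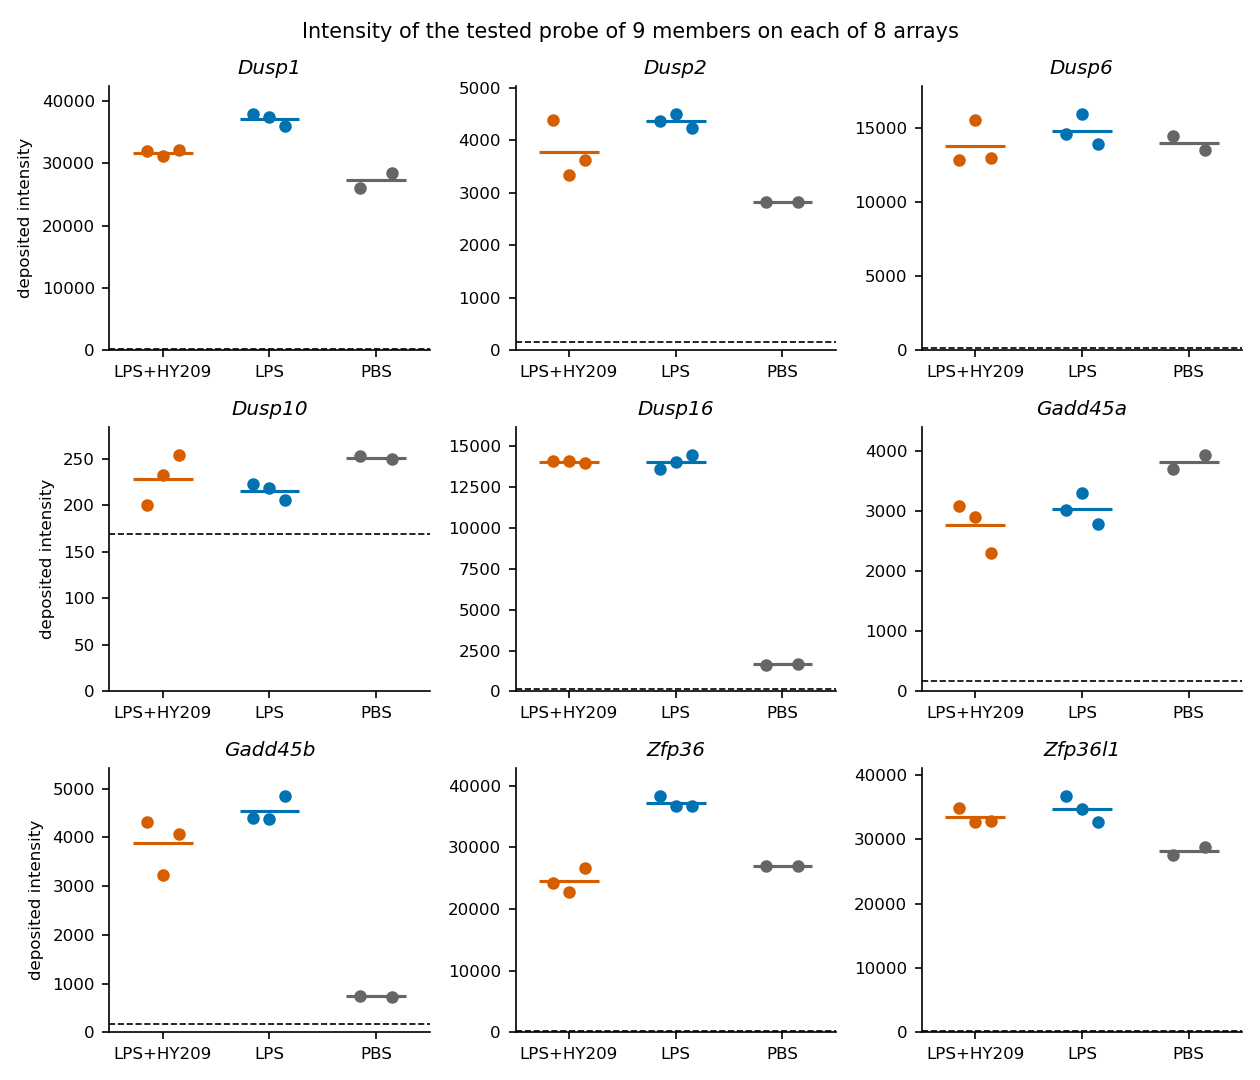
Deposited intensity of the tested probe of each of 9 members on the LPS+HY209 (3), LPS (3) and PBS (2) arrays. Points are arrays, bars are group means, and the dashed line is the background threshold of 168.8. The gap to PBS is widest for Dusp16 and Gadd45b, and Zfp36 is the member whose LPS+HY209 arrays lie below both other groups.

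Among the phosphatases Dusp16 changed most. Dusp16 (MKP-7) is a JNK phosphatase that shuttles between nucleus and cytoplasm. Its probe ILMN_3112011 read 14090.2, 14090.2 and 13966 in LPS+HY209 cells, 13569, 14025 and 14431 in LPS cells and 1633 and 1693 in PBS cells. The arrays of both LPS groups overlapped with each other and lay far above PBS. The rise in LPS cells was 8.74-fold (log2 change 3.13 ± 0.08, adjusted p = 8e-11), and LPS+HY209 cells stood 8.76-fold above PBS (3.13 ± 0.08, adjusted p = 7.2e-11). The difference between LPS+HY209 and LPS cells was 0.0046 ± 0.0755, with a 95% interval of -0.16 to 0.17 on the log2 scale. A second probe, ILMN_2754148, read 6916, 6961 and 7348 in LPS+HY209 cells, 7188, 7269 and 7369.5 in LPS cells and 721 and 742 in PBS cells, 10.9-fold higher in LPS cells than in PBS cells. The third, ILMN_3037810, was dim. It read 269, 264 and 270.3 in LPS+HY209 cells, 317, 319 and 321 in LPS cells and 154 on both PBS arrays, where it was not above background. On the background-corrected scale, with PBS set at the background limit, this probe was at least 1.98-fold higher in LPS+HY209 cells and at least 2.48-fold higher in LPS cells than in PBS cells. The uncorrected intensities printed here, which still hold the background, differ by less. It was also lower with HY209 than with LPS alone (-0.33 ± 0.08, adjusted p = 0.025 over all probes), which the brighter probes did not show (0.0046 and -0.041), so the probes of Dusp16 disagree about HY209.

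Dusp1 (MKP-1) is a nuclear phosphatase of p38 and JNK and the best known brake on cytokine production after LPS. It read 32003, 31133 and 32126 in LPS+HY209 cells, 37879, 37463 and 36027 in LPS cells and 26008 and 28524 in PBS cells (probe ILMN_2622983). The groups did not overlap, and LPS+HY209 lay between LPS and PBS. The rise in LPS cells was 1.36-fold (0.45 ± 0.09, adjusted p = 0.00089). The other differences did not pass the test: LPS+HY209 cells differed from LPS cells by -0.23 ± 0.08 (adjusted p = 0.096, 95% interval -0.40 to -0.05) and from PBS cells by 0.22 ± 0.09 (adjusted p = 0.055). Both passed when the values were not background-corrected (adjusted p = 0.044 and 0.024) and with an intensity trend in the prior spread (0.0083 and 0.0034). Over the 15 alternatives run, the adjusted p of the difference from LPS cells ran from 0.0083 to 0.23, and over 14 that of the difference from PBS cells ran from 0.0034 to 0.33.

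Dusp2 (PAC-1), a nuclear phosphatase of activated immune cells, read 4398, 3339 and 3623 in LPS+HY209 cells, 4369, 4497 and 4244 in LPS cells and 2824 on both PBS arrays (probe ILMN_3009243). Every array with LPS lay above PBS, and LPS+HY209 1 lay among the LPS arrays. The rise was 1.56-fold in LPS cells (0.64 ± 0.11, adjusted p = 0.00046) and 1.34-fold in LPS+HY209 cells against PBS (0.42 ± 0.11, adjusted p = 0.0093). The second of these lost its call without either PBS array (adjusted p = 0.055 each). LPS+HY209 cells differed from LPS cells by -0.22 ± 0.10 (adjusted p = 0.20). The probe ILMN_1242406 read 1455, 1269 and 1555 in LPS+HY209 cells, 1671, 1682 and 1765 in LPS cells and 907 and 894 in PBS cells. By that probe the groups did not overlap, and LPS+HY209 lay again between the others, at -0.28 ± 0.09 from LPS cells (adjusted p = 0.10). It was higher than in PBS cells both in LPS cells (0.98 ± 0.10, adjusted p = 9.3e-06 over all probes) and in LPS+HY209 cells (0.70 ± 0.10, adjusted p = 0.00018).

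Dusp6 (MKP-3) is a cytoplasmic phosphatase specific for ERK, and Dusp10 (MKP-5) acts on JNK and p38. Neither was called. Dusp6 read 12818, 15577 and 12963 in LPS+HY209 cells, 14629.8, 15926 and 13915 in LPS cells and 14451 and 13538 in PBS cells (probe ILMN_2925711), and the groups overlapped throughout. The 95% intervals were -0.32 to 0.11 for LPS+HY209 against LPS, -0.16 to 0.32 for LPS against PBS and -0.27 to 0.21 for LPS+HY209 against PBS. A dimmer Dusp6 probe, ILMN_1248537, read 649.5, 866 and 722 in LPS+HY209 cells, 636, 845 and 897 in LPS cells and 589 and 505 in PBS cells. It was higher in LPS cells than in PBS cells (0.58 ± 0.17, adjusted p = 0.014 over all probes) and in LPS+HY209 cells than in PBS cells (0.49 ± 0.17, adjusted p = 0.035), which the bright probe did not show. Dusp10 lay near background, at 200.1, 232 and 254 in LPS+HY209 cells, 222, 218 and 206 in LPS cells and 253 and 249.6 in PBS cells (probe ILMN_2818964). All LPS arrays were below PBS (-0.31 ± 0.13, adjusted p = 0.057, 0.014 to 0.19 over 14 alternatives, 95% interval -0.60 to -0.03), and LPS+HY209 overlapped with both other groups. The other Dusp10 probe showed no such gap (0.0028 ± 0.1401).

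Of the promoters of these phosphatases, that of Dusp1 and that of Dusp16 are printed because Dusp1 holds the full cAMP response element and Dusp16 changed most. Both are the 250 bases before the gene's start, from RefSeq, in GRCm38.p6 (Dusp1 at chr17:26508473-26508722, minus strand; Dusp16 at chr6:134792629-134792878, minus strand). Capitals mark the matches found.
Dusp1: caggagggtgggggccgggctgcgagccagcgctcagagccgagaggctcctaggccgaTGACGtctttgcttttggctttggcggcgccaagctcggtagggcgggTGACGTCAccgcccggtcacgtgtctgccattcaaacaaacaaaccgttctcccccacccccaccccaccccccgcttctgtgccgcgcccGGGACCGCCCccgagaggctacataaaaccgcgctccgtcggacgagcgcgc
Dusp16: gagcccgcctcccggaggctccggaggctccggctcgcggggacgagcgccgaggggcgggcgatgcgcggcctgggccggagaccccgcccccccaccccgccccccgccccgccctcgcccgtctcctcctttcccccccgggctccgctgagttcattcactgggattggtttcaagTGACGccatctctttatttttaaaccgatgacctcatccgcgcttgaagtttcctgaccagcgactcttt
Searched on both strands were the cAMP response element (TGACGTCA), its half-site (TGACG), an AP-1 site (TGANTCA), a loose kB-like site (GGGA and CC with any 4 bases between them), the TATA letters (TATAAA) and the CArG box of serum response factor. The whole element contains its half-site on each strand. In Dusp1 the full cAMP response element lies 143 to 136 bases before the start, a further half-site 191 to 187 bases before it and a kB-like site 52 to 43 bases before it. In Dusp16 a half-site lies 70 to 66 bases before the start. Promoter windows were found for all 10 members. The full element was in 1 of 10 and in 1.55% of all 32851 windows, the half-site in 3 of 10 and 17.8%, the AP-1 letters in 1 of 10 and 6.75%, the kB-like letters in 4 of 10 and 17.6%, and TATAAA in 2 of 10 and 12.4%. A match describes the letters and not a bound site.

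The Gadd45 genes moved in opposite directions after LPS. Gadd45b, known as an NF-kB target, read 4318, 3231 and 4079.7 in LPS+HY209 cells, 4399.8, 4369 and 4843 in LPS cells and 751 and 727 in PBS cells (probe ILMN_2900653). The arrays with LPS lay far above PBS, and every LPS+HY209 array lay below every LPS array. The 3 members whose LPS+HY209 and LPS arrays did not overlap were Dusp1, Gadd45b and Zfp36. Gadd45b rose 6.65-fold in LPS cells (2.73 ± 0.12, adjusted p = 4.7e-09) and stood 5.63-fold above PBS in LPS+HY209 cells (2.49 ± 0.12, adjusted p = 1.3e-08). LPS+HY209 cells differed from LPS cells by -0.24 ± 0.11, which did not pass the test (adjusted p = 0.19, 95% interval -0.48 to 0.00029). Gadd45a, known as a p53 target, read 3074, 2905 and 2306 in LPS+HY209 cells, 3017, 3305 and 2777 in LPS cells and 3703 and 3923 in PBS cells (probe ILMN_2742152). All arrays with LPS lay below both PBS arrays. It fell 1.27-fold in LPS cells (-0.34 ± 0.13, adjusted p = 0.041) and stood 1.40-fold below PBS in LPS+HY209 cells (-0.49 ± 0.13, adjusted p = 0.0080). The first call was lost without PBS 1, PBS 3, LPS 1 or LPS 3 (adjusted p = 0.097, 0.19, 0.079 and 0.12), and the second without PBS 3 (0.069). The second Gadd45a probe, ILMN_2947568, differed by -0.19 ± 0.13 between LPS and PBS cells and was not called (adjusted p = 0.25 over all probes). Between LPS+HY209 and PBS cells that probe was called lower (-0.35 ± 0.13, adjusted p = 0.047 over all probes).

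The Gadd45b promoter (chr10:80929841-80930090, plus strand, GRCm38.p6, RefSeq) is printed for the larger of these changes, with the TATA letters 46 to 41 bases before the start in capitals.
Gadd45b: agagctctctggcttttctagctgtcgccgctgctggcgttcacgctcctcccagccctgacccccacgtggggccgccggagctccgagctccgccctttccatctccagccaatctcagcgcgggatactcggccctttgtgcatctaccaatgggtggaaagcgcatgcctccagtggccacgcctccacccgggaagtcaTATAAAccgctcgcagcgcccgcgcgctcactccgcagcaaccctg
No other searched motif matched in this window.

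The remaining relative, Gadd45g, was not a listed member and followed Gadd45b. It averaged 6967 ± 409 in LPS+HY209 cells, 9105 ± 331 in LPS cells and 2841 ± 229.7 in PBS cells. It rose 3.26-fold in LPS cells (1.71 ± 0.10, adjusted p = 2.8e-08) and fell with HY209 against LPS alone (-0.39 ± 0.09, adjusted p = 0.016). The fall with HY209 was lost without LPS+HY209 1, LPS 1 or LPS 3 (adjusted p up to 0.064).

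**Figure D2:**
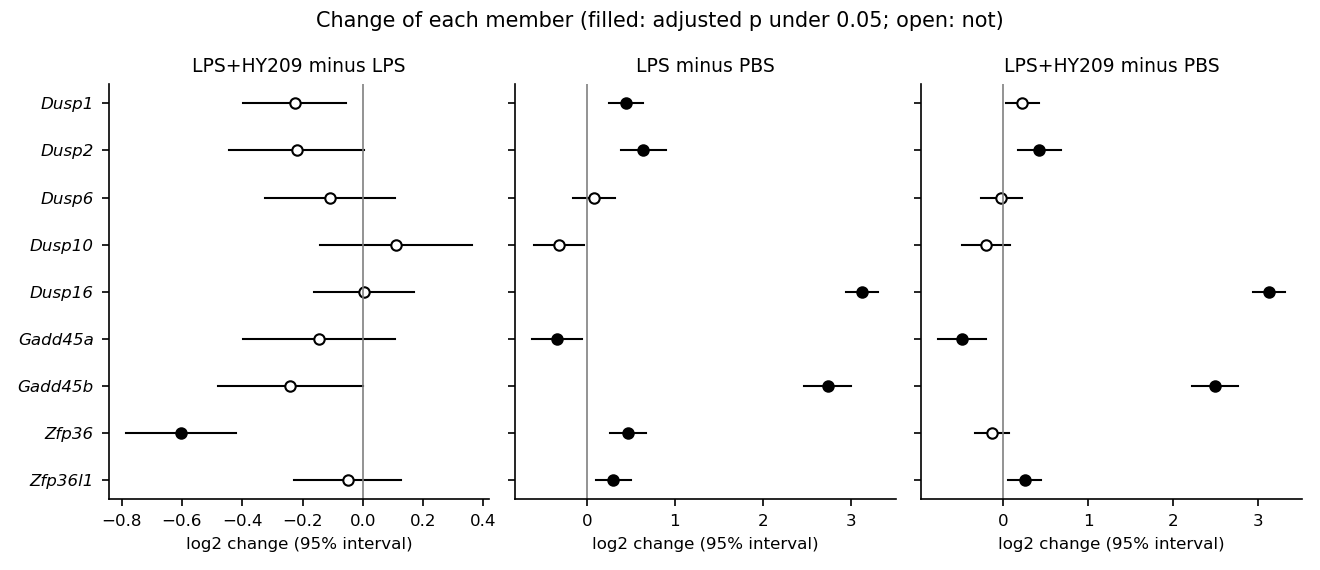
Log2 change of each tested member in 3 comparisons, with 95% intervals from the limma fit. Filled points have an adjusted p under 0.05. Zfp36 is the filled point for LPS+HY209 minus LPS (-0.60), and Dusp16 (3.13) and Gadd45b (2.73) lie far right for LPS minus PBS.

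Zfp36 was the member called lower with HY209. It read 24215, 22817 and 26639.9 in LPS+HY209 cells, 38279.8, 36650.3 and 36650.3 in LPS cells and 26941 on both PBS arrays (probe ILMN_3162407). Every LPS array lay above PBS, and every LPS+HY209 array lay below both. Zfp36 rose 1.38-fold in LPS cells (0.47 ± 0.09, adjusted p = 0.0011) and was 1.52-fold lower in LPS+HY209 cells than in LPS cells (-0.60 ± 0.08, adjusted p = 0.0017, 95% interval -0.79 to -0.42). Without any 1 of the 6 arrays of these groups that change ran from -0.66 to -0.55 with an adjusted p of up to 0.012. LPS+HY209 and PBS cells differed by -0.14 ± 0.09 (adjusted p = 0.26, 95% interval -0.34 to 0.07). Zfp36 has a single probe, so no second probe bears on it.

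The Zfp36 promoter (chr7:28379229-28379478, minus strand, GRCm38.p6, RefSeq) is printed because Zfp36 is classed with the immediate early genes that serum response factor controls. Capitals mark a kB-like match on the minus strand 100 to 91 bases before the start and a CArG box 58 to 49 bases before it.
Zfp36: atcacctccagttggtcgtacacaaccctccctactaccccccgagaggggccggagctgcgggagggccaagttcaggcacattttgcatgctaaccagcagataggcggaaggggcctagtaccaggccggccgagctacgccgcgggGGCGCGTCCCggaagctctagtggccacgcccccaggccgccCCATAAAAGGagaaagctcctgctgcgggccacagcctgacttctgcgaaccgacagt
The CArG box was found in 2 of 10 member windows (Zfp36 and Dusp5) and in 1.47% of all windows.

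Zfp36l1 did not share the change with HY209. It read 34878, 32722 and 32839 in LPS+HY209 cells, 36650.3, 34653 and 32722 in LPS cells and 27559 and 28836 in PBS cells (probe ILMN_2780424). The groups with LPS overlapped and lay above PBS. It rose 1.23-fold in LPS cells (0.30 ± 0.09, adjusted p = 0.015) and stood 1.19-fold above PBS in LPS+HY209 cells (0.25 ± 0.09, adjusted p = 0.040). Without PBS 1 or LPS 1 the first call was lost (adjusted p = 0.10 and 0.057), and without PBS 1, PBS 3, LPS+HY209 1 or LPS+HY209 3 the second (0.20, 0.099, 0.096 and 0.061). LPS+HY209 cells differed from LPS cells by -0.050 ± 0.081, with a 95% interval of -0.23 to 0.13. The difference between the HY209 changes of Zfp36 and Zfp36l1 was not tested. A dimmer probe, ILMN_1247853, read 6204, 5988 and 7029 in LPS+HY209 cells, 6635, 6095 and 7769 in LPS cells and 4235 and 4162 in PBS cells. It rose 1.63-fold in LPS cells (0.70 ± 0.12, adjusted p = 0.00034 over all probes) and stood 1.53-fold above PBS in LPS+HY209 cells (0.61 ± 0.12, adjusted p = 0.0012). The third probe, ILMN_2427108, lay near background and was called in neither comparison (0.34 ± 0.16 and 0.32 ± 0.16, adjusted p = 0.10 and 0.14). Dusp1, Zfp36 and Zfp36l1 lie in the upper part of the intensity range (22817 to 38279.8 of at most 66399), and whether their changes are compressed there was not tested.

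**Figure D3:**
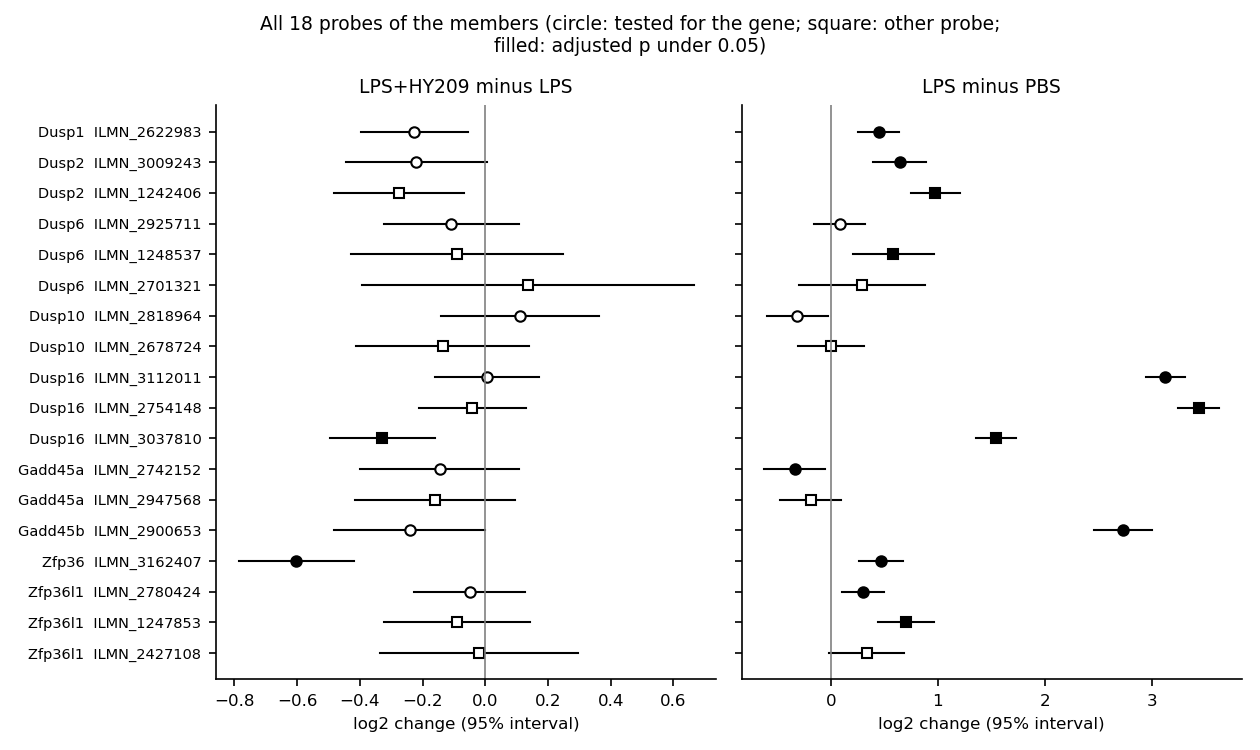
Log2 change of all 18 probes of the members for LPS+HY209 minus LPS and for LPS minus PBS, with 95% intervals. Circles are the probes tested for the gene, squares the other probes (adjusted over all probes), and filled symbols have an adjusted p under 0.05. The 3 probes of Dusp16 all lie above 0 for LPS minus PBS, and the dim one alone is filled for LPS+HY209 minus LPS.

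The immediate early genes Fos, Ier2 and Egr1, transcription regulators that MAP kinases induce, were lower in LPS+HY209 than in LPS cells, as Zfp36 was. Fos averaged 2464 ± 239 in LPS+HY209 cells, 10309 ± 283 in LPS cells and 5981 ± 81.7 in PBS cells. Ier2 averaged 245 ± 19.6, 738 ± 49.7 and 305 ± 23.0 in LPS+HY209, LPS and PBS cells, and Egr1 averaged 2798 ± 100.3, 7029 ± 405 and 2863 ± 152. LPS+HY209 cells differed from LPS cells by -2.10 ± 0.09 for Fos, -1.92 ± 0.10 for Ier2 and -1.35 ± 0.08 for Egr1 on the log2 scale (adjusted p = 3.7e-07, 3e-06 and 6.2e-06). All are larger in size than the -0.60 ± 0.08 of Zfp36, and that difference between genes was not tested. Between LPS+HY209 and PBS cells Fos differed by -1.31 ± 0.10 (adjusted p = 4.8e-07), Ier2 by -0.42 ± 0.12 (adjusted p = 0.010, and 0.12 without PBS 1) and Egr1 by -0.033 ± 0.093 (adjusted p = 0.80).

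**Figure D4:**
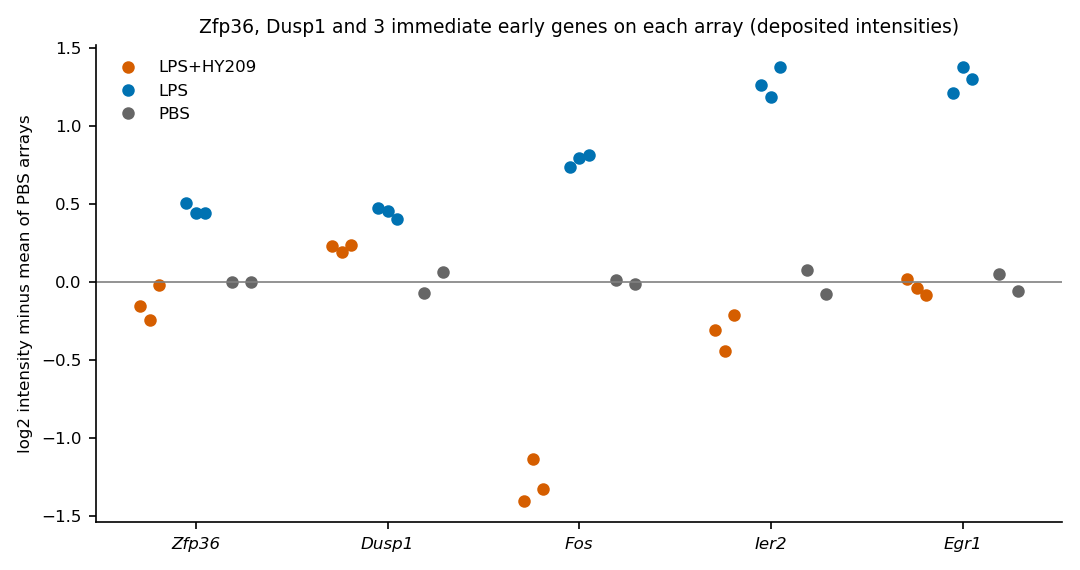
Log2 deposited intensity of Zfp36, Dusp1, Fos, Ier2 and Egr1 on each array, minus the mean of the PBS arrays. Points are arrays of LPS+HY209, LPS and PBS cells. In all 5 genes every LPS array lies above every LPS+HY209 array, and for Dusp1 the LPS+HY209 arrays stay above PBS.

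The counts of pathway genes called after LPS stand against 55.9% of all genes called (25.7% higher and 30.2% lower), and several lie near that share. Those for HY209 against LPS alone stand against 9.63% of all genes called (6.15% higher and 3.48% lower). Of 14 other dual specificity phosphatases tested, 4 rose and 5 fell in LPS cells (median log2 change -0.019). Ssh1, a phosphatase of cofilin, rose 2.72-fold (1.44 ± 0.13), and Dusp22 (-1.35 ± 0.10) and the ERK phosphatase Dusp7 (-1.29 ± 0.09) fell. Ssh1 was dim, at 256.5 ± 20.3 in LPS+HY209 cells, 350 ± 40.3 in LPS cells and 171 ± 3.81 in PBS cells. Only 1 of the 2 PBS arrays was above background for it, so its fold rests on a value at that limit. Without PBS 1, PBS 3 or LPS 1, 2 of the 14 phosphatases rose. With HY209 against LPS alone 1 fell by limma, Ssh1 (-0.58 ± 0.12, adjusted p = 0.011), and 0 rose, though 1 rose without LPS+HY209 2. At an unadjusted p under 0.05, 2 were lower and 2 higher. Of 8 MAP kinases tested, 3 rose and 5 fell in LPS cells (median -0.74, or -0.64 with genes below background in a whole group set at the bound of their change). With any 1 of the 5 arrays of these groups left out, without background correction, without the filter or with an intensity trend in the prior, 2 rose and 5 fell. The p38 kinase Mapk13 rose 5.42-fold (2.44 ± 0.09, 2853 ± 37.2 in LPS+HY209 cells, 3274 ± 219 in LPS cells and 659 ± 35.6 in PBS cells). The JNK gene Mapk8 (-1.85 ± 0.11) and the p38 gene Mapk11 (-1.63 ± 0.15) fell. With HY209 1 MAP kinase was called, Mapk12, at least 1.04-fold higher than in LPS cells, where it was not above background (adjusted p = 0.037). That call was lost without LPS+HY209 1, LPS+HY209 3, LPS 1 or LPS 3 (adjusted p up to 0.14), while without LPS+HY209 2 there were 2 higher MAP kinases and without LPS+HY209 3 there was 1 lower.

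Of 23 genes up- and downstream of the MAP kinases (kinases and the TAK1 adaptors Tab1 and Tab2), 10 rose and 4 fell in LPS cells (median 0.17, and 2 fell without PBS 3). Map3k8, which carries the LPS signal to ERK, rose 5.30-fold (2.41 ± 0.13), and Mapkapk2, the p38-activated kinase that phosphorylates Zfp36, rose 3.24-fold (1.69 ± 0.10). Map3k6, a stress-activated kinase of that tier, also rose (1.59 ± 0.08, adjusted p = 1.8e-08). Mapkapk2 averaged 10484 ± 986 in LPS+HY209 cells, 10776 ± 713 in LPS cells and 3372 ± 79.5 in PBS cells. With HY209 against LPS alone 2 fell, Map3k6 (-0.43 ± 0.08, adjusted p = 0.0064) and the ERK kinase Map2k1 (-0.35 ± 0.09, adjusted p = 0.036). Over all genes 3.48% were called lower and 6.15% higher in that comparison. Map2k1 lost its call without LPS+HY209 1, LPS+HY209 2, LPS 1 or LPS 3 (adjusted p up to 0.13). Both genes were dim and lay near background in PBS cells. Map3k6 averaged 307, 390 and 174 in LPS+HY209, LPS and PBS cells, and Map2k1 averaged 204, 242 and 179. Of 13 other inhibitors of ERK signalling, 6 rose and 3 fell in LPS cells (median 0.24). The adaptor Dok2 rose (1.42 ± 0.13), and the Ras GTPase activator Rasa1 (-1.09 ± 0.10) and the EGF receptor inhibitor Errfi1 (-0.97 ± 0.11) fell. With HY209 0 of the 13 were called by limma, and at an unadjusted p under 0.05 1 was lower and 0 were higher.

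Among 24 genes for AU-rich element binding and mRNA deadenylation, the machinery that Zfp36 works with, 5 rose and 7 fell in LPS cells (median -0.058). Zc3h12a (regnase-1), an RNase that cuts cytokine mRNAs, rose 6.63-fold (2.73 ± 0.10), to 3732 ± 338 in LPS+HY209 cells and 4063 ± 35.7 in LPS cells, against 671 ± 18.7 in PBS cells. Its relative Zc3h12d (-0.71 ± 0.10) and the deadenylase Cnot6l (-0.66 ± 0.12) fell. With HY209 2 of the 24 rose against LPS alone and 0 fell, near the 6.15% of all genes called higher (3.48% were called lower). The 2 were Zc3h12d (0.45 ± 0.09, adjusted p = 0.0088) and the exosome subunit Exosc1 (0.36 ± 0.08, adjusted p = 0.017). Exosc1 lost its call without LPS+HY209 1 or LPS 3 (adjusted p up to 0.058).

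Of 21 cytokine, chemokine and related mRNAs known to carry AU-rich elements, 15 rose and 0 fell in LPS cells by limma (the same counts at an unadjusted p under 0.05), and the median change was 1.48 on the log2 scale (1.24 with the bounds). Cxcl2 (6.27 ± 0.20), Ccl3 (5.25 ± 0.11) and the anti-inflammatory cytokine Il10 (4.97 ± 0.09) rose most. In LPS+HY209 cells against LPS cells, 5 of these genes were lower and 0 were higher by limma, against 3.48% and 6.15% of all genes called lower and higher. At an unadjusted p under 0.05, 10 were lower and 1 higher by limma, and the share of all genes at that threshold was not counted. Whether these changes are linked to that of Zfp36 was not tested. The 5 genes called were the angiogenic factor Vegfa (-0.60 ± 0.09), the chemokine Ccl3 (-0.60 ± 0.10), the cytokine Osm (-0.60 ± 0.12), the stress-response gene Ier3 (-0.43 ± 0.08) and the protease Plau. Ccl3 averaged 6339 ± 697 in LPS+HY209 cells, 9527 ± 563 in LPS cells and 317 ± 7.36 in PBS cells. Ier3 averaged 11021 ± 555, 14855 ± 320.1 and 2361 ± 173 in LPS+HY209, LPS and PBS cells. Plau was not above background on any LPS+HY209 or PBS array, so its fall was at least 1.06-fold, and its call was lost without LPS+HY209 1, LPS 1 or LPS 3 (adjusted p up to 0.12). Cxcl2 (-0.40 ± 0.18, adjusted p = 0.20) and Il10 (-0.20 ± 0.08, adjusted p = 0.15) were not called between these groups. Of 16 p53 and stress targets, the kind of gene to which Gadd45a belongs, 10 rose and 4 fell in LPS cells (median 0.53), and Plk2 (2.99 ± 0.13), the cell cycle inhibitor Cdkn1a (2.79 ± 0.20) and Plk3 (2.26 ± 0.09) rose most. With HY209 Plk3 (-0.50 ± 0.08) and the stress transcription factor Ddit3 (-0.42 ± 0.08) fell and Sesn1 rose (0.40 ± 0.08).

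Against PBS cells, where 47.7% of all genes were called in LPS+HY209 cells (21.6% higher and 26.1% lower), several lists again lay near that share. Other phosphatases had 4 higher and 4 lower of 14, MAP kinases 2 and 5 of 8, the genes around them 9 and 3 of 23 and ERK inhibitors 7 and 3 of 13. The decay machinery had 7 higher and 6 lower of 24, the AU-rich element genes 15 and 0 of 21 (16 and 0 at an unadjusted p under 0.05), and the p53 and stress targets 8 and 5 of 16. Leaving out PBS 1, PBS 3, LPS+HY209 1, LPS+HY209 2 or LPS+HY209 3 in turn took some of these counts down by over 1.5 times, to as few as 1 lower for the genes around the MAP kinases, 4 higher for the ERK inhibitors and 3 higher and 3 lower for the decay machinery.

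**Figure D5:**
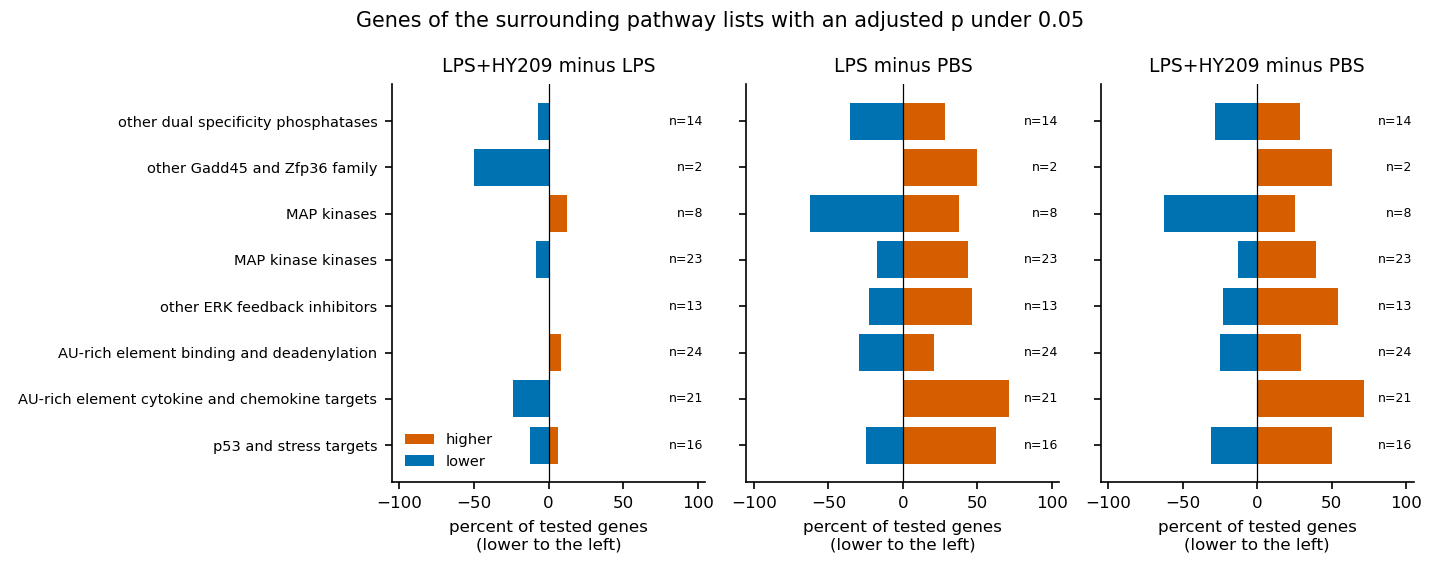
Share of the tested genes of each pathway list with an adjusted p under 0.05, higher to the right and lower to the left of 0, in 3 comparisons. The number tested stands at the right of each bar. The AU-rich element genes have 15 of 21 higher for LPS minus PBS and 5 of 21 lower for LPS+HY209 minus LPS.

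The genes whose values over the 8 arrays were nearest to each member were found by the root mean square difference of log2 values after each gene's mean was removed, as a description with no test. Nearest to Dusp16 were the interleukin-1 decoy receptor Il1r2 (0.085) and Ecm1 (0.094), and nearest to Gadd45b were Igfbp6 (0.11) and the cytokine subunit Ebi3 (0.12). Il1r2 averaged 17722 in LPS+HY209 cells, 18309.7 in LPS cells and 2321 in PBS cells. Nearest to Zfp36 were Notch4 (0.089) and Fbxo46 (0.11), to Dusp1 Ddb2 (0.039) and Rnf113a2 (0.050), and to Dusp2 Asnsd1 (0.076) and Tnfrsf4 (0.080). Notch4 averaged 616 in LPS+HY209 cells, 819.6 in LPS cells and 637 in PBS cells. The other members had Trappc5 and Eloc (Dusp6), Slc16a13 and Sprr2a1 (Dusp10), Smyd3 and Acad8 (Gadd45a) and B4galt7 and Cbl (Zfp36l1) nearest, at 0.027 to 0.076.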

How the data were processed

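Expression was measured on 8 Illumina MouseRef-8 v2 arrays, grouped by their titles. PBS 3 bears the number 2 in its description, and its title was followed. The authors deposited linear intensity values that they had quantile normalized between arrays (quantiles differ by at most 0.0616%) without subtracting background (lowest value 108.93). The submitters' processing notes name GenomeStudio 2011.1 and R 2.15.0. Another table, of 16 columns whose names fit no sample title, was left out.

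Background was corrected here with normexp (offset 50) and the values were quantile normalized and put on the log2 scale with limma 3.58.1 in R 4.3.3. The mode of the intensities (148.4) and the spread below it (0.113 in log2) set the upper limit of background at 168.8, and 50.6% of an array's probes exceeded it. The 14743 probes above it on 2 or more arrays were kept. Of all probes 23978 had 1 gene symbol, 0 several and 1719 none, and 23962 matched RefSeq by Entrez identifier, which changed 0 symbols. The brightest probe stood for each gene. A model with a mean for every group was fitted to the 8 arrays (lmFit and eBayes, two-sided, 5 residual and 6.59 prior degrees of freedom), with Benjamini-Hochberg adjustment over 10219 genes, and other probes of a gene were adjusted over all probes kept. The number of arrays limits the precision (median standard error 0.097 for LPS+HY209 against LPS and 0.11 for either against PBS, log2 scale), and the p-values measure the spread between pools. The fit was tested on simulated data with known changes.

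Genes named are the members, Fos, Ier2 and Egr1, the 3 largest called changes of each pathway list per comparison (all where 5 or fewer were called), and the 2 nearest genes of each member. S100a8 and the Cxcl2 and Il10 differences between LPS+HY209 and LPS lie outside that rule and were chosen after their values were seen, and for LPS+HY209 against PBS the lists are given as counts. The members and lists were chosen with earlier results of these data known. The alternatives tried were no background correction, 75th percentile scaling, no filter and a stricter one, every probe by itself, only the arrays compared, an intensity trend in the prior, the replicate number as a block, and leaving out each array. Same-numbered arrays did not all deviate together (correlations of residuals from -0.19 to 0.30 over 7 pairs), so the number was not used to pair arrays. The lowest of these involves PBS 3, whose number is in doubt. Between LPS+HY209 and LPS, arrays numbered 1, 2 and 3 had correlations of 0.049, 0.30 and 0.28. Differently numbered arrays of these groups had -0.35 to 0.12. A pairing of these groups is thus not excluded, and results with the number as a block are given below.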

Additional observations from a re-analysis of the deposited data

How the results depend on the processing

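Zfp36 (lower in LPS+HY209 than in LPS cells) and Dusp16 and Gadd45b (higher in both LPS groups than in PBS cells) kept their direction and call under every alternative run. Scaling to the 75th percentile left the counts as they were. It could hardly do otherwise, since the deposited values were already quantile normalized, so it says nothing about the choice of normalization. Members called between LPS+HY209 and LPS cells numbered 2 in place of 1 without background correction, with every probe by itself and with an intensity trend in the prior. Leaving out 1 array at a time gave 2 to 5 members called between LPS+HY209 and PBS cells (5 with all arrays) and 402 to 1130 genes called between LPS+HY209 and LPS cells (984 with all). Differences near 0 changed sign. Dusp6 between LPS+HY209 and PBS cells ran from -0.12 to 0.023 (log2) with an array left out, Egr1 from -0.089 to 0.022, and between LPS+HY209 and LPS cells Dusp10 ran from -0.00084 to 0.24 and Dusp16 from -0.018 to 0.026; the cause was not tested, and none of these was called. With the replicate number as a block, 1 member was called between LPS+HY209 and LPS, 7 between LPS and PBS and 5 between LPS+HY209 and PBS, as without it, and 1220, 5823 and 5024 genes in all. With PBS 3 numbered 2 in the block, a choice made after seeing the data, Dusp6 differed by 0.016 between LPS+HY209 and PBS cells and Gadd45a lost its call between LPS and PBS (adjusted p = 0.058). Without the filter Gadd45a (0.062) between LPS and PBS and Zfp36l1 (0.086) between LPS+HY209 and PBS lost theirs, as did Zfp36l1 with only the arrays compared (0.061). The 2 PBS arrays and signals close to background, as for Dusp10, limit what can be resolved.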
